A study of Drosophila palustris with 2 samples.

Results

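The subject is a set of gene models of the fruit fly Drosophila palustris that were read mostly on the strand opposite the annotated one. A model belongs to the set if its antisense count exceeded its sense count in each of the 2 libraries and if both counts together came to at least 100 in each library. Of 20053 annotated models 116 met this rule, and 11497 had at least 100 stranded reads in each library, so 11381 well-read models remained outside it. The members were chosen by their sense and antisense counts, so the strand balance of these 116 models is given as a description. The libraries were made from poly(A)-selected RNA of whole bodies, each from 10 to 20 pooled adult males and females, and they form 1 group of 2 biological replicates with no treatment, genotype contrast or tissue contrast. A whole-body pool does not say which sex or tissue a read came from. The models carry locus tags alone, so no function is given for any of them.

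A directional library kit keeps the strand of the original RNA, so a read can be assigned to the strand of a gene model (sense) or to the opposite strand (antisense). Drosophila genomes are compact, and neighbouring genes can overlap at their 3′ ends or lie nested in the introns of others, so that antisense reads of one model can be sense reads of its neighbour. Animal genomes also transcribe antisense RNAs of their own, and some of these act on the gene they overlap. Gene predictors such as BRAKER place models on a strand from splice signals, protein similarity and aligned RNA reads. The reads studied here had served as evidence for this annotation, so strand balance is not independent of the models.

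Total depth was 63649388 reads in replicate 1 and 55800005 in replicate 2. Over all models the antisense column held 0.795% and 0.966% of the stranded gene reads, and the median antisense share of the 11381 other well-read models was 0.206% in replicate 1 and 0.208% in replicate 2. In the 10% of these other models with the highest antisense share, the share began at 2.39% and 2.80%.

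On average 50.9% ± 1.47 (SD, n = 2) of the antisense reads of all genes fell on the 116 models, at 49.8% in replicate 1 and 51.9% in replicate 2. They held only 0.0356% and 0.0437% of the sense reads. Their antisense counts ran from 64 to 41864 in replicate 1 with a median of 260, and from 53 to 38207 in replicate 2 with a median of 261.5. Their sense counts had a median of 20.5 and 20 reads and reached 6159 and 8666. The reads were concentrated in few models: the 5 with the most antisense reads took 56.9% and 57.2% of the set's antisense reads, and the 20 with the most took 84.7% and 85.9%. At the other end, 50 of the 116 had under 300 stranded reads in each library.

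**Figure D1:**
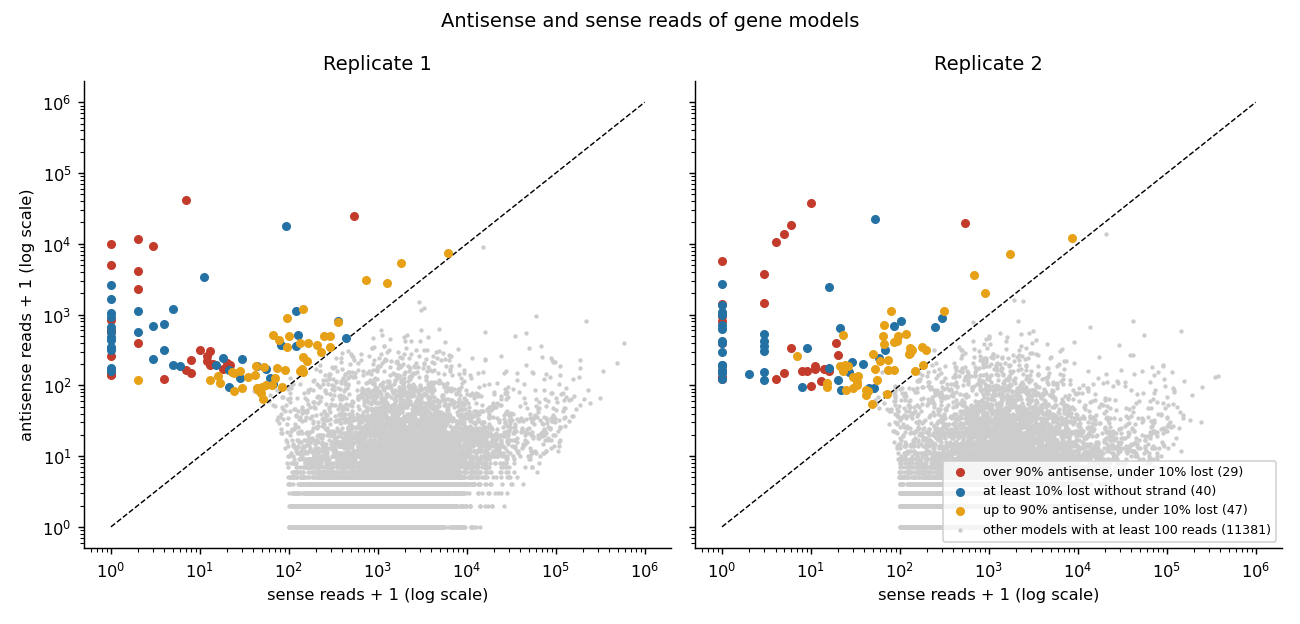
Antisense reads + 1 (vertical) against sense reads + 1 (horizontal), both on log scales, for replicate 1 (left) and replicate 2 (right); each point is a model, coloured points are the 116 antisense-majority models in 3 classes and grey points the 11381 other well-read models. The dashed line marks equal counts, and the coloured points extend left to models with no sense read while the grey cloud lies below the line, except for points of models above it in 1 library alone.

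Within the set the antisense share varied widely. Its median was 90.2% in replicate 1 and 91.4% in replicate 2, and 25% of the models lay under 73.5% and 78.9%. In 54 models it exceeded 90% in each library, in 35 it exceeded 99%, and 17 had no sense read in either library. A count of 0 allows up to 3 reads.

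A second measure, which the rule did not use, is the number of reads a model lost when strand was ignored. A read that lies on exons of 2 models on opposite strands can be given to the right model with strand, but is ambiguous without it and drops out of both. The lost reads are therefore the sense and antisense counts together minus the unstranded count. Such a loss of at least 10% in each library was found in 40 of the 116 models (34.5%, 95% Wilson interval 26.5 to 43.5), against 72 of the 11381 other well-read models (0.633%, 0.503 to 0.796). Over all 11497 well-read models the share was 0.974%. The antisense reads that put a model into the set include those it shares with an overlapping neighbour, so the rule favours such models and no test was made. No read was lost in either library by 53 of the 116 (45.7%) and by 7632 of the others (67.1%). Together the 116 models lost 34683 and 36406 reads, which is 31.5% and 33.0% of the losses summed over all models. In that sum a read lost by 2 models counts for each of them, so these are not shares of distinct reads. Most of the members' loss, 17881 and 22471 reads, lay in the single model ACLKA6_018307, and the median member lost 1 and 0 reads.

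These measures divide the set into 3 classes, with limits of 90% antisense and 10% lost. The first held 29 models over 90% antisense with a loss under 10%, and it carried 61.7% of the set's antisense reads in replicate 1 and 60.0% in replicate 2. The second held the 40 models that lost at least 10% in each library, with 22.2% and 21.3% of the reads. The third held the other 47 models, of mixed strand, with 16.1% and 18.7%. These were not over 90% antisense in each library, and their loss was under 10% in at least 1 library.

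**Figure D2:**
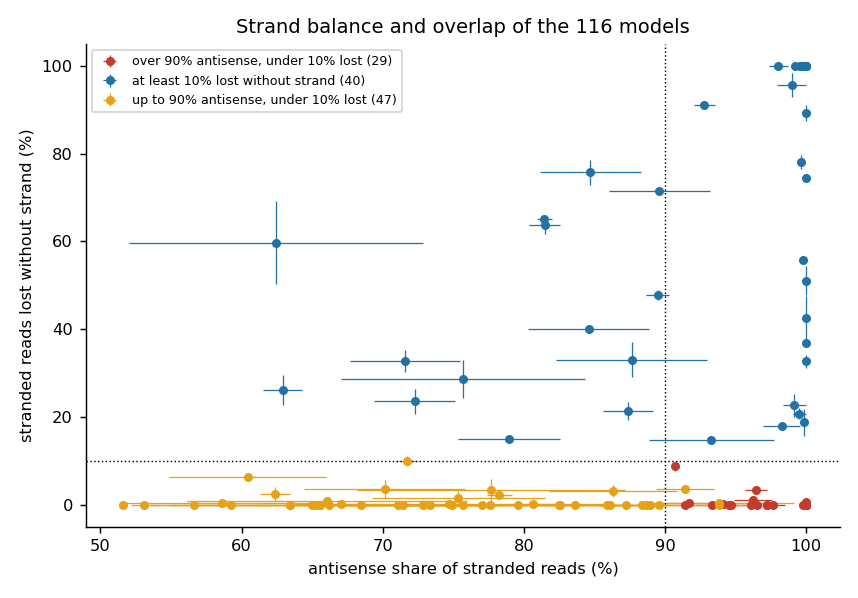
Antisense share of stranded reads in percent (horizontal) and share of stranded reads lost when strand is ignored in percent (vertical) for the 116 models; points are means of the 2 libraries and bars run from one library to the other. Dotted lines mark 90% and 10%, and the 40 models that lost at least 10% in each library spread up to a loss of 100%, most of them over 90% antisense, while the mixed models lie along the bottom.

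The first class holds models read almost purely on the opposite strand, with few or none of those reads on an annotated exon of that strand. ACLKA6_005035 had the most antisense reads of the set, 41864 in replicate 1 and 38207 in replicate 2. Its sense reads numbered 6 and 9, a share of 0.0143% (95% Wilson interval 0.00657 to 0.0313) and 0.0236% (0.0124 to 0.0448). That minor-strand share was below the median minor-strand share of the other well-read models given above. Among the counts of all models on either strand, its antisense count ranked 169 in replicate 1 and 157 in replicate 2. It lost no read without strand, and its neighbours by tag were read on the sense strand, ACLKA6_005034 with 17878 and 12717 sense reads and ACLKA6_005036 with 1115 and 1055.

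ACLKA6_014547 had 11538 and 18498 antisense reads against 1 and 5 sense reads. Its preceding tag ACLKA6_014546 had 0 and 1 sense reads, while the following tag ACLKA6_014548 had 2446 and 3502 sense reads and, in replicate 2, 2 antisense reads. ACLKA6_010306 had 9838 and 13823 antisense reads against 0 and 4 sense reads. The adjacent tags of both models were read on the sense strand where they had reads. ACLKA6_015732, the second by antisense reads, was less pure: its 533 sense reads in each library made up 2.09% (1.92 to 2.28) and 2.60% (2.39 to 2.82), above the median minor-strand share of the other models.

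Of the 17 models without a sense read, 6 lost no read either. Among these, ACLKA6_014132 had 825 and 969 antisense reads, between ACLKA6_014131 with 522 and 713 sense reads and ACLKA6_014133 with 150 and 171. ACLKA6_019810 had 611 and 810 antisense reads, and its neighbours were nearly unread: ACLKA6_019809 had 17 and 11 sense reads and ACLKA6_019811 none on either strand. Both models were thus read on the strand opposite the annotated one alone, to the limit of 3 reads that a count of 0 allows. ACLKA6_019810 was named after its values were seen.

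Over the 29 models of this class, 21 had an adjacent tag whose sense count reached 100 in each library. In 15 of the 29 the antisense count exceeded the sense count of each adjacent tag in each library. Model lengths were not used, so this compares reads and not transcript levels. Neither share was taken over the other models, so both counts are descriptions and nothing particular to the class is read from them.

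**Figure D3:**
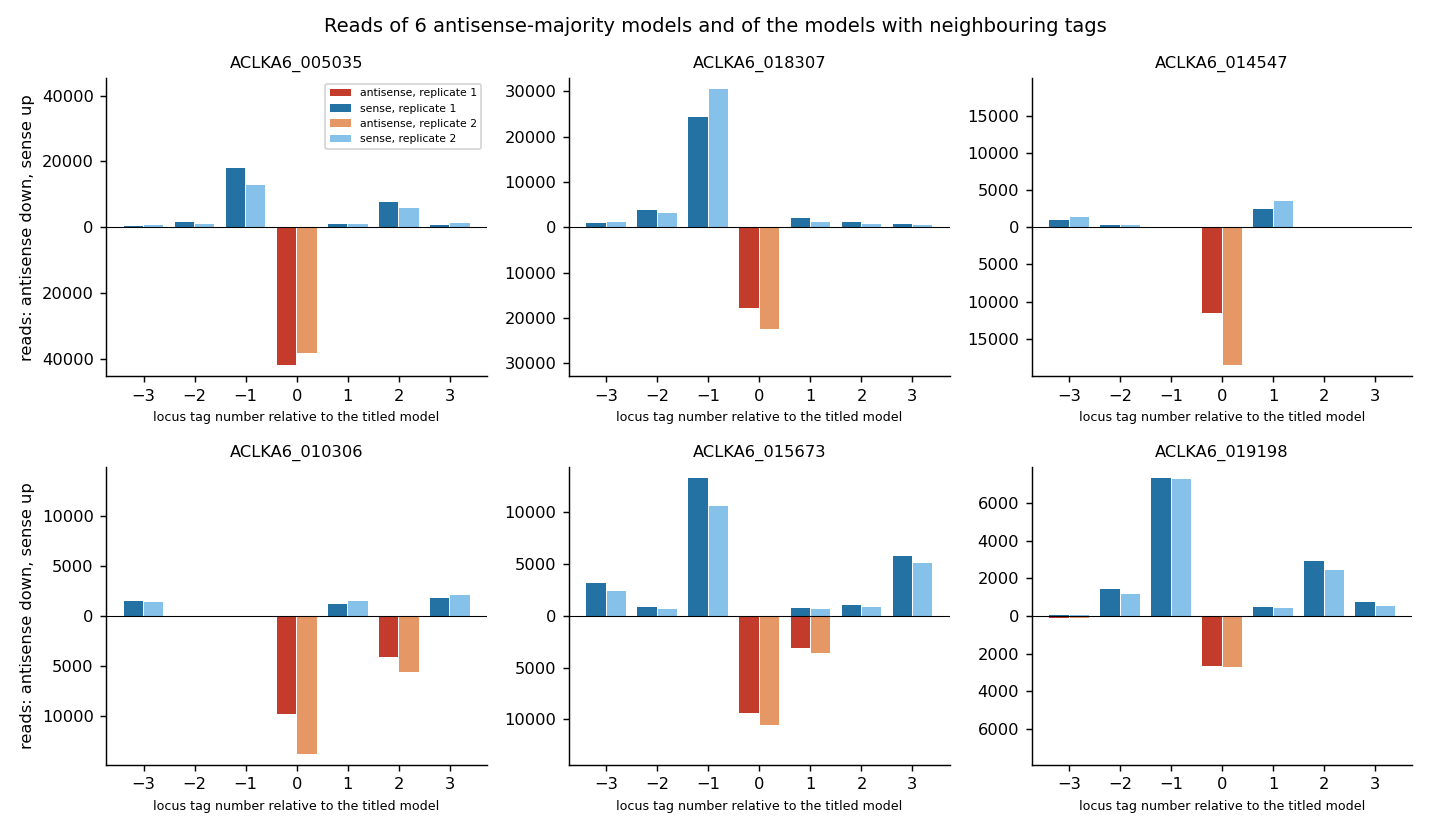
Reads of 6 antisense-majority models and of the models up to 3 locus tags before and after them, with antisense reads drawn downward and sense reads upward on linear axes; dark bars are replicate 1 and light bars replicate 2. The titled model at 0 is read downward in each panel while most of its neighbours are read upward. Further downward models stand 2 tags after ACLKA6_010306 and 1 tag after ACLKA6_015673, and with few reads 3 tags before ACLKA6_019198 and 2 tags before ACLKA6_010306; tag -3 in the panel of ACLKA6_010306 stands in another block of the deposited tables.

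The second class holds models with at least 10% of their reads, in some all of them, also on exons of another annotated model. In 11 of them at least 99% of the reads were lost without strand, and 10 of these had no unstranded read in either library. ACLKA6_018307 was by far the most read, with 17790 and 22419 antisense against 91 and 52 sense reads and 0 unstranded reads in each library. The preceding tag ACLKA6_018306 had 24261 and 30384 sense reads and lost 17886 and 22475 without strand, against the 17881 and 22471 lost by ACLKA6_018307. The reads of ACLKA6_018307 thus match, to within 5 reads, the part that ACLKA6_018306 lost, which was 73.7% and 74.0% of its sense reads. The unstranded count of ACLKA6_018306 was 6636 and 8074.

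ACLKA6_018104, named after its values were seen, showed the same arrangement with its following tag. It had 3373 and 2419 antisense against 10 and 15 sense reads, and it lost 3382 and 2433 reads. ACLKA6_018105 lost the same numbers, which was 74.1% and 74.4% of its sense reads. ACLKA6_019198 had 2651 and 2713 antisense and no sense reads, and every one of them was lost. The preceding tag ACLKA6_019197 lost 2651 and 2712 of its 7318 and 7266 sense reads. ACLKA6_006914, with 1059 and 1374 antisense and no sense reads, was lost entirely, and ACLKA6_006913 lost exactly 1059 and 1374. ACLKA6_005588 and ACLKA6_010816 also lost every read, with 1105 and 634 antisense reads for ACLKA6_005588 and 687 and 428 for ACLKA6_010816. ACLKA6_005587, which precedes the first of these, lost 1107 and 634 reads, and ACLKA6_010815, which precedes the second, lost 691 and 430. In each of these 6 models the lost reads matched those of an adjacent tag to within 5 reads. Not every fully lost model had such a match. ACLKA6_002372, named after its values were seen, lost all of its 236 and 145 stranded reads. Its adjacent tags lost 135 and 122 (ACLKA6_002371) and 0 and 0 (ACLKA6_002373).

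Partial overlap was also seen. ACLKA6_018292 had 1643 and 1076 antisense and no sense reads and lost 514 and 368 of them. The matching loss was not in an adjacent tag but 3 tags before, in ACLKA6_018289, which lost 513 and 368 of its 16100 and 10920 sense reads. ACLKA6_004858 had 922 and 706 antisense and no sense reads and lost 336 and 263, the same numbers as its preceding tag ACLKA6_004857. ACLKA6_018292 thus lost 31.3% and 34.2% of its reads and ACLKA6_004858 lost 36.4% and 37.3%, and the rest lay on no annotated exon of the other strand. ACLKA6_005674, the partner of ACLKA6_005675, stood at the other extreme and was named after its values were seen. It lost 96.0% and 99.6% of its 470 and 274 sense reads, and its unstranded count was 21 and 2.

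Equal losses were used to name the partner. Of the 53 members that lost reads in each library, 28 lost exactly as many as an adjacent tag in each library, and 38 were within 1% of one. Some of these matches rest on few reads and do not by themselves show a shared overlap. ACLKA6_013774 and ACLKA6_016136, named after their values were seen, matched on 1 lost read in each library. Such pairs were kept in the counts and correlations. Of the 1796 other models with a loss in each library, 719 (40.0%) had an adjacent tag of exactly equal loss. In each of the 38 pairs the partner was read mostly on the sense strand in each library, and in 35 its sense count exceeded the member's antisense count in each library. The partners had a median of 2130 and 1664.5 sense reads, and the shared reads were a median of 9.19% and 9.41% of them. The partner was the following tag in 15 pairs and the preceding tag in 23. None of the partners was itself a member. Among the 40 models that lost at least 10%, 32 had a partner within 1%.

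The members' antisense reads and their partners' sense reads had similar ratios between the pools. Across the 38 pairs the log2 ratio of replicate 1 to replicate 2 of the member's antisense reads had a Pearson correlation of 0.876 (Spearman 0.883) with that of the partner's sense reads. The paired values share reads, libraries and scaling, so the correlation was repeated after the lost reads had been taken from each side, in the 23 pairs with at least 20 reads left in each library on each side. It was then 0.830 (Spearman 0.881). Among the 29 models of the first class, the correlation with the sense reads of a tag of at least 100 sense reads was 0.171 over 16 preceding tags and 0.260 over 20 following tags (Spearman 0.303 and 0.448). Among the models of mixed strand it was -0.143 over 37 preceding and 0.153 over 39 following tags (Spearman -0.0804 and 0.0729). The pairs were chosen by near-equal losses, and the tags of these 2 classes by position. All these values describe models that share libraries, and their differences were not tested.

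**Figure D4:**
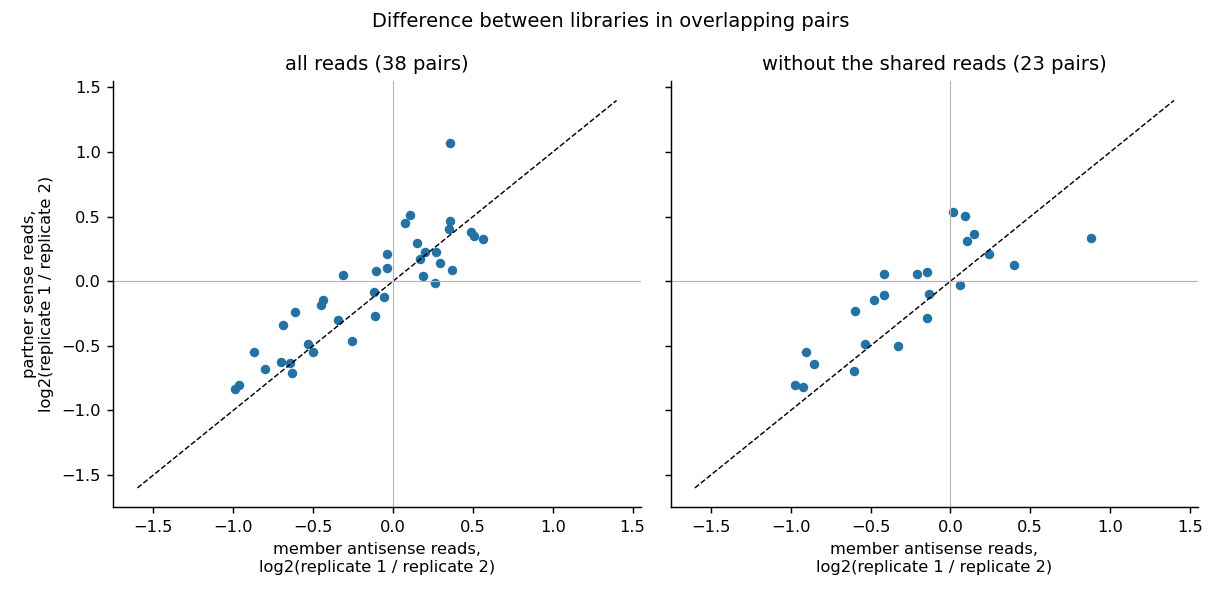
Log2 ratio of replicate 1 to replicate 2 for the partner's sense reads (vertical) against that for the member's antisense reads (horizontal), TMM-scaled, in the 38 pairs with losses within 1% of each other (left) and in the 23 pairs with at least 20 reads left on each side after the shared reads were removed (right). The dashed line marks equal ratios, and points lie along it in both panels, with Pearson correlations of 0.876 and 0.830 across pairs.

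The third class holds 47 models with reads of both strands and little overlap with annotated exons. Their median antisense share was 71.0% in replicate 1 and 78.0% in replicate 2, and their median counts were 169 and 220 antisense against 76 and 65 sense reads. ACLKA6_014056 had the most reads of these, with 7510 and 12133 antisense against 6159 and 8666 sense reads, or 56.6% ± 2.40 antisense (SD, n = 2). ACLKA6_002906 had 5288 and 7201 antisense against 1824 and 1711 sense reads. ACLKA6_015533 had 2756 and 1984 antisense against 1272 and 910 sense reads. Its share was nearly the same in each pool, at 68.5% ± 0.0952. None of these 3 models lost a read without strand. ACLKA6_002906 and ACLKA6_015533 were named after their values were seen. Across the 47 models the log2 ratio between pools of a model's antisense reads had a Pearson correlation of 0.0221 with that of its own sense reads (Spearman 0.0407), where the 2 counts come from the same libraries.

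Of the 116 members, 4 had an adjacent member tag, in 2 pairs, while 8 had a member within 2 tags and 19 within 5. ACLKA6_015673 had 9408 and 10513 antisense against 2 and 3 sense reads, and the next tag ACLKA6_015674 had 3077 and 3585 antisense against 727 and 673 sense reads. Their log2 ratios of replicate 1 to replicate 2 were -0.47 and -0.53. ACLKA6_014056 was followed by ACLKA6_014057 with 122 and 187 antisense against 3 and 10 sense reads, with log2 ratios of -1.003 and -0.92. ACLKA6_010306 and ACLKA6_010308 lie 2 tags apart around a sense-read model. ACLKA6_010308 had 4101 and 5650 antisense against 1 and 0 sense reads, and the model between them, ACLKA6_010307, had 1158 and 1529 sense reads. The log2 ratios of the outer models were -0.80 and -0.77. ACLKA6_006802 and ACLKA6_006805 leaned the other way. ACLKA6_006802 had 2315 and 1409 antisense reads and ACLKA6_006805 had 560 and 392, with log2 ratios of 0.41 and 0.20. The 2 sense-read tags between them went in the opposite direction: ACLKA6_006803 had 8389 and 10917 sense reads and ACLKA6_006804 had 4508 and 5441. Of the 10 pairs of members up to 5 tags apart, the other 6 were mixed. In 3 of them both log2 ratios were below 0, at -0.31 and -0.08 for ACLKA6_006841 and ACLKA6_006844, -0.43 and -0.34 for ACLKA6_019195 and ACLKA6_019198, and -0.99 and -0.60 for ACLKA6_019511 and ACLKA6_019514. In the other 3 the signs differed, at -0.08 and 0.39 for ACLKA6_007895 and ACLKA6_007897, -0.60 and 0.66 for ACLKA6_019694 and ACLKA6_019698, and 0.66 and -2.19 for ACLKA6_019698 and ACLKA6_019701. The pairs that are not adjacent were named after their values were seen.

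The antisense counts of most members were similar in the pools. After scaling by the sense counts with edgeR's trimmed mean of M values (TMM), 109 of the 116 lay within 2-fold and 83 within 1.5-fold, and the median absolute log2 ratio was 0.36. It was 0.49 for the antisense counts of the other tested models, which include models with fewer antisense reads, and 0.20 for the sense counts of all well-read models. A two-sided exact binomial test of each model's antisense reads was adjusted by Benjamini-Hochberg over the 3532 models with at least 10 antisense reads in each library or 20 in total. It called 7 of the 116 members at an adjusted p under 0.05 and at least 2-fold, against 10.4% of all models tested. The members' share was 6.03% (95% Wilson interval 2.95 to 11.9). At a minimum of 50 antisense reads in each library, which every member meets, the same 7 members were called and the background was 44 of 694 models (6.34%), so the members' share was near the background.

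All 7 were higher in replicate 2, and no member was called higher in replicate 1. Without the fold minimum, 47 members were higher in replicate 2 and 16 in replicate 1 at an adjusted p under 0.05 in the exact binomial test, and 50 and 26 at an unadjusted p under 0.05. At that adjusted p these were 63 of the 116 members (54.3%), against 644 of all 3532 models tested (18.2%). The tested models include models with fewer antisense reads, and this difference in share was not tested. With the fold minimum, the background leaned the same way, with 8.64% of tested models called higher in replicate 2 and 1.81% in replicate 1. The direction rests on the scaling: with the total of antisense reads in place of sense-based TMM, the members' median log2 ratio was 0.16 instead of -0.18, and 2 members were called in each direction. The test covers counting error between these libraries, and not conditions. In pools of whole flies, fewer cells of a type and less RNA per cell cannot be told apart.

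ACLKA6_019701 was the farthest apart. It had 395 antisense reads in replicate 1 and 1456 in replicate 2, with 1 and 2 sense reads. The log2 ratio was -2.19 (exact 95% interval -2.36 to -2.03, exact binomial test adjusted p = 4.76e-194), and it passed with each of the 4 scalings. Its neighbours did not share this difference. Before scaling they had more sense reads in replicate 1, the deeper library: ACLKA6_019700 had 378 and 276 and ACLKA6_019702 had 4083 and 2855. The next were ACLKA6_011190, with 165 and 343 antisense reads (log2 ratio -1.36), and ACLKA6_002036, with 95 and 186 (log2 ratio -1.28). The sense reads of ACLKA6_011190 were 90 and 174, a difference in the same direction, whereas those of ACLKA6_002036 were 49 and 25. The other 4 called members were ACLKA6_010984, ACLKA6_004031, ACLKA6_011132 and ACLKA6_014056, with log2 ratios of -1.24, -1.21, -1.15 and -1.003, the first 3 named after their values were seen.

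**Figure D5:**
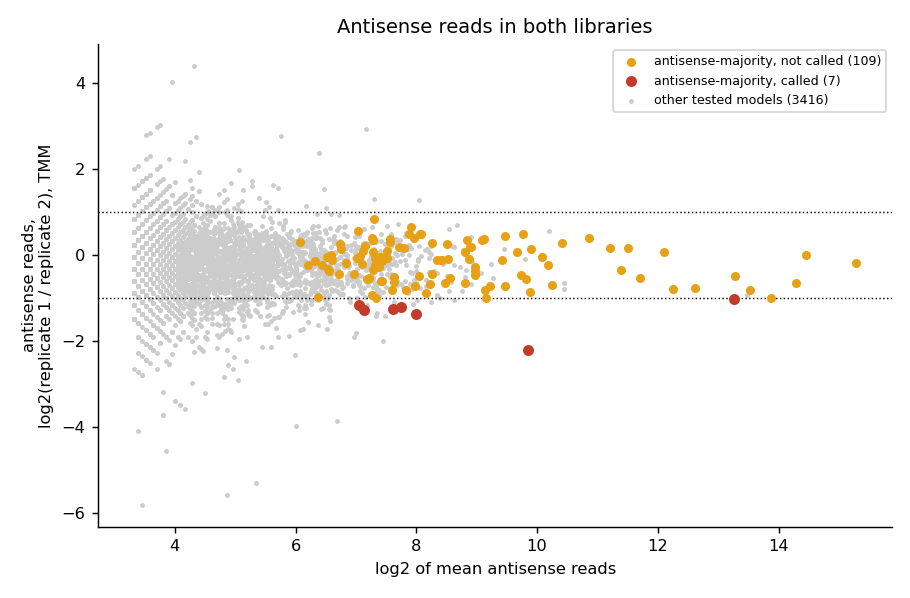
Log2 ratio of TMM-scaled antisense reads of replicate 1 to replicate 2 (vertical) against the log2 of their mean antisense count (horizontal) for the 116 members and 3416 other tested models; dotted lines mark a 2-fold difference. The 7 called members (red) lie below the lower line, ACLKA6_019701 lowest at -2.19, and most members lie between the lines.

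The strand balance of members was also set side by side between the pools. A two-sided Fisher exact test of sense and antisense reads by library needs no scaling, and was adjusted over the 11497 well-read models. It called 17 of the 116 members at an adjusted p under 0.05 and an odds ratio of at least 2-fold, against 3.16% of all well-read models. Many of those have few antisense reads. Among the 2993 other well-read models with at least 20 antisense reads over both libraries, 307 (10.3%) were called. The members were chosen by the same counts, and the 15 well-read models with an antisense majority in 1 library alone were left out by the rule, so the count of members called is a description and nothing is read from it. Of the 17, 13 had a higher antisense share in replicate 2 and 4 in replicate 1. The background leaned in the same direction, with 2.51% of well-read models called higher in replicate 2 and 0.644% in replicate 1.

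Models of mixed strand gave most of the examples, which were named after their values were seen. ACLKA6_011899 was 63.8% antisense in replicate 1, with 504 antisense and 286 sense reads, and 85.6% in replicate 2, with 386 and 65. Here the sense counts differed more between the pools than the antisense counts. ACLKA6_014808 was 83.3% antisense in replicate 1 and 95.9% in replicate 2, with 494 and 510 antisense but 99 and 22 sense reads. ACLKA6_007671 leaned the other way, at 90.4% in replicate 1 and 81.9% in replicate 2, with 891 and 524 antisense against 95 and 116 sense reads. Of the 17, 2 were over 95% antisense in each library. ACLKA6_018307 had 91 and 52 sense reads, a higher antisense share in replicate 2, and ACLKA6_018436 had 3 and 20 sense reads beside 728 and 637 antisense reads, a higher share in replicate 1.

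Strand-aware and strand-blind counts give these models different levels. In 39 of the 116 the sense count was under 10 in each library, and 29 of these had at least 10 unstranded reads in each. ACLKA6_005035 had 6 and 9 reads by sense counting and 41870 and 38216 by unstranded counting. Taking the lost reads from the antisense count left 98 of the 116 with antisense above sense in each library. In the other 18 the lost reads equalled or exceeded the margin in at least 1 library.

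At the limits of the rule, ACLKA6_005367 lay just inside with 75 antisense and 71 sense reads in replicate 2, and ACLKA6_008738 with 154 and 144 in replicate 1. Just outside were ACLKA6_011799 with 88 antisense and 97 sense reads in replicate 1 and 151 and 62 in replicate 2, and ACLKA6_014652 with 81 and 40 in replicate 1 and 76 and 85 in replicate 2. Each of these 2 was antisense-majority in 1 library alone, as were 15 well-read models in all. By depth, ACLKA6_006841 and ACLKA6_019559 were just inside with 100 stranded reads in replicate 2. Just outside were ACLKA6_003851 with 99 and ACLKA6_016188 with 98 stranded reads in replicate 2. ACLKA6_016188, which follows the member ACLKA6_016187, was read purely antisense, with 144 and 98 reads. Choosing models in 1 library and looking at the other, 132 of 138 models chosen in replicate 1 (95.7%) had antisense above sense in replicate 2, and 121 of 130 chosen in replicate 2 (93.1%) had it in replicate 1.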

How the data were processed

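The authors deposited, for each library, raw counts per gene model in the 3 columns of STAR's gene counts (without strand, forward strand, reverse strand). The submitters' processing notes name fastp and STAR 2.7.11b. BRAKER 3.0.6 predicted the models from these reads, per the series' design text. Per the labels' protocols, each library took 1 µg of RNA and a directional kit. The settings, and whether the unit counted is a read or a pair, are not given in the sources used here.

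Sense counts were read from the reverse-strand column and antisense counts from the forward-strand column. The 4 entries without a gene (26.8% and 30.1% of reads) were left out. Scaling used TMM of the sense counts (edgeR 4.0.16, R 4.3.3; factors 1.02 and 0.981), or DESeq2 1.42.0 size factors as an alternative. Quasi-likelihood tests were not run, since there is 1 group. Exact binomial tests used models with at least 10 antisense reads in each library or 20 in total, adding 0.5 for ratios; Fisher tests used at least 100 stranded reads (SciPy 1.17.1). Both were run on simulated counts with planted changes and counting error alone, which does not cover variation between pools. Intervals and floors cover counting error only. The deposited tables list the tags in 353 blocks of consecutive numbers, and adjacency means consecutive tag numbers.

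The set and all lists and tests were chosen with earlier results of these data known. Members were named by rule: the 5 with the most antisense reads, the 5 such without a sense read, the 5 with the largest loss, runs of consecutive tags, the 3 called with the largest ratios in each direction, and those at the limits. Others are marked. Alternatives changed the rule, loss limits, scaling, filters and fold minimums. Names, coordinates and sequences were not used here.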

Additional observations from a re-analysis of the deposited data

Results flagged for a closer look

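Outside the comparisons above, there were 210 further models with antisense above sense in each library, which had at least 10 stranded reads in each library but under 100 in at least one. They carried 7492 antisense reads in replicate 1 and 7007 in replicate 2, or 2.01% and 1.84% of all antisense gene reads, with a median of 26 and 25 per model. They were chosen by these counts, so the values are a description. In 29 of them the sense count was 0 in both libraries, and ignoring strand removed 10% or more of the reads of 36 in both libraries.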

How the results depend on the processing

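Of 55 alternative values for the 9 summary results, 27 stayed within the tolerance (1.5 times for counts, 1 SD between libraries for shares, 10% for the median absolute log2 ratio) and 28 moved. The 116 models became 65 and 36 with minimums of 200 and 500 reads, 54 with antisense over 9 in 10 reads and 53 without models that lost a read. Their share of antisense reads (50.9%) became 48.8% and 46.2% at those minimums, 47.1% with antisense at least 2 times sense, 40.7% over 9 in 10, 34.6% without models that lost a read and 42.6% with lost reads subtracted. Their median antisense share (90.8%) became 89.1%, 91.7% and 97.9% at minimums of 50, 200 and 500, and 95.7%, 99.9%, 87.6% and 89.5% in the other 4 settings. The 40 models that lost at least 10% became 22 at 50%. The 4 with an adjacent member became 8 within 2 tags and 10 at a minimum of 50. The 7 called between libraries became 33 at 1.5-fold, 1 at 4-fold and 4 with total antisense reads, and the 17 called on strand share became 5 at 4-fold. Between libraries, 16.2% of all 3532 models tested were called at 1.5-fold, 2.18% at 4-fold and 8.61% with total antisense reads. With replicate 1 or 2 left out, the models numbered 130 to 138, their share of reads 50.5% to 52.5%, their median share 88.8% to 89.8%, those losing at least 10% 40 to 41, equal-loss members 35 to 38 and adjacent members 4 to 8. Without replicate 2, the adjacent members numbered 8. The tests between libraries have no value with 1 library. Of the 7 called members, 5 fell under 2-fold with total antisense reads, and ACLKA6_014056 also with total sense reads (log2 ratio -0.95). The causes were not tested. Strand shares are limited by depth in models near 100 reads. No paired analysis was possible because both libraries belong to 1 group.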
